A study of Bos taurus with 18 samples.

Results

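Cumulus cells of cattle were compared directly between follicles that had gone 92 h and follicles that had gone 20 h without follicle-stimulating hormone (FSH), a period called coasting. The comparison holds 6 of the 18 dual-channel microarrays of the series. They form 3 replicates, each hybridised in 2 dye orientations, with 20 h RNA in one channel and 92 h RNA in the other. All genes measured on these arrays are described. Of the remaining arrays, 6 set 44 h and 6 set 68 h against 20 h. They enter here through the estimate of variance, the choice of genes and probes tested, and the scaling of channel levels.

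The cells came from 6 Holstein cows of about 4 years, over 24 collections by ovum pick-up in the luteal phase. Each cow went through all 4 coasting times in separate cycles. Both groups had the same stimulation, with the dominant follicle aspirated 36 h before treatment and then 6 doses of 40 mg of FSH at 12 h intervals over 3 days. They differed in the coasting time. Per the labels they also differed in follicle diameter, 3 to 5 mm for 20 h and above 8 mm for 92 h, and the effects of time and diameter cannot be told apart. The series asks which cumulus transcripts go with the oocyte's gain of competence to develop. Which cows or how many cells went into a replicate is not stated in the labels. The p-values, except those from 92 h alone, cover only the spread among replicates, pooled over the coasting times set against 20 h. This spread may be partly technical. The RNA was amplified in 2 rounds before labelling.

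Cumulus cells are the somatic cells packed around the oocyte, which they feed through gap junctions with amino acids, pyruvate and cholesterol products that the oocyte makes poorly by itself. Under FSH they divide along with the granulosa cells of the follicle wall. When FSH support falls, the largest follicles come to depend on luteinising hormone, granulosa cells leave the cell cycle, and the follicle either differentiates towards ovulation or becomes atretic.

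The labelled cell type was checked against fixed marker lists. Of 15 granulosa and cumulus markers, 12 were above background on all 6 arrays in the 20 h channel and 12 in the 92 h channel, with a summed level between 17.1 and 17.6 (log2) at 20 h and between 16.6 and 17.6 at 92 h. Of 18 theca and smooth muscle markers 7 were above background on all 6 arrays at 20 h and 8 at 92 h, and their summed level was 13.7 to 14.1 at 20 h and 13.99 to 14.8 at 92 h. Of 16 leukocyte markers 4 were so at either time, with summed levels of 11.9 to 12.3 and 12.1 to 12.7. Of 12 endothelial markers 3 and 2 were so, of 17 oocyte markers with a probe 5 and 4, and of 7 erythrocyte markers with a probe 1 and 0. Each sum also includes probes not above background, among them those of 6 leukocyte markers on every array at 20 h. CYP17A1, the androgen-making enzyme of theca cells, and DCN, LHCGR and PDGFRB were above background in neither channel of any of the 6 arrays. The same held for CSF1R, ITGAM and ITGB2 of leukocytes, for EMCN, KDR, PECAM1, PLVAP and TIE1 of endothelium, and for GDF9, NLRP5, NOBOX, ZAR1 and ZP4 of the oocyte. In RNA from whole cell samples, fewer cells of a type and less RNA per cell cannot be told apart.

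Each value below is a log2 ratio of 92 h over 20 h, so that 1 means a doubling and -1 a halving, and the values of replicates 1, 2 and 3 are given in that order. Between 40.1 and 59.8% of gene probes were above background in the 92 h channel of an array and between 40.3 and 65.1% in the 20 h channel. Replicates 1 and 2 correlated across the 11044 genes tested with r = 0.68, replicates 1 and 3 with r = 0.58 and replicates 2 and 3 with r = 0.42. Genes are not independent of each other here, and with 6 arrays the precision is limited. Replicate 2 had the widest ratios (SD over genes 0.51, against 0.37 and 0.46), and for 4870 genes it was the value furthest from the other two.

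Among the genes that fell after 92 h were 38 of 200 genes of cell division and DNA maintenance and 3 of 19 of cholesterol synthesis, and the highest ratios among the called genes were those of VNN1, GATM, CEBPD, APP and ASNS. Of 11044 genes tested with limma, 256 passed a Benjamini-Hochberg adjusted p of 0.05, which is 2.32% of all genes. Of these, 137 rose (1.24%) and 119 fell (1.08%). A change of at least 2-fold was reached by 37 that rose and 44 that fell. Of the 256, 248 had the same sign on all 6 arrays, as had 23.0% of all genes, a difference that the selection itself favours. The median SD over replicates was 0.164 for the called genes, with 0.929 as the highest, and 0.136 for all genes, with 3.07 as the highest. Another kept probe existed for 81 called genes. The brightest of these had the same sign in 71 (87.7%), against 67.3% of all genes with another kept probe. In 31 called genes it had the same sign with at least 50% of the log2 ratio. A fit on the 92 h values by themselves called 160 genes (1.45%), and 59 were shared with the 256. The count was 0, 12 and 65 without replicate 1, 2 and 3 of 92 h. It was 102 and 95 without replicate 1 and 3 of 68 h, and 170, 526 and 498 without replicate 1, 2 and 3 of 44 h. The sign of each of the 256 was kept in all of these, which was largely fixed in advance. Leaving out a 44 or 68 h replicate does not alter the 92 h ratio. Leaving out a 92 h replicate cannot turn a gene whose 3 replicates share a sign. With a trended and robust prior 0 genes passed, although 1891 had an unadjusted p under 0.05, against 1991 in the test reported here, and without replicate 1 of 92 h the latter number was 1434. With median centring in place of loess 68 passed, of which 13 rose and 55 fell.

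**Figure D1:**
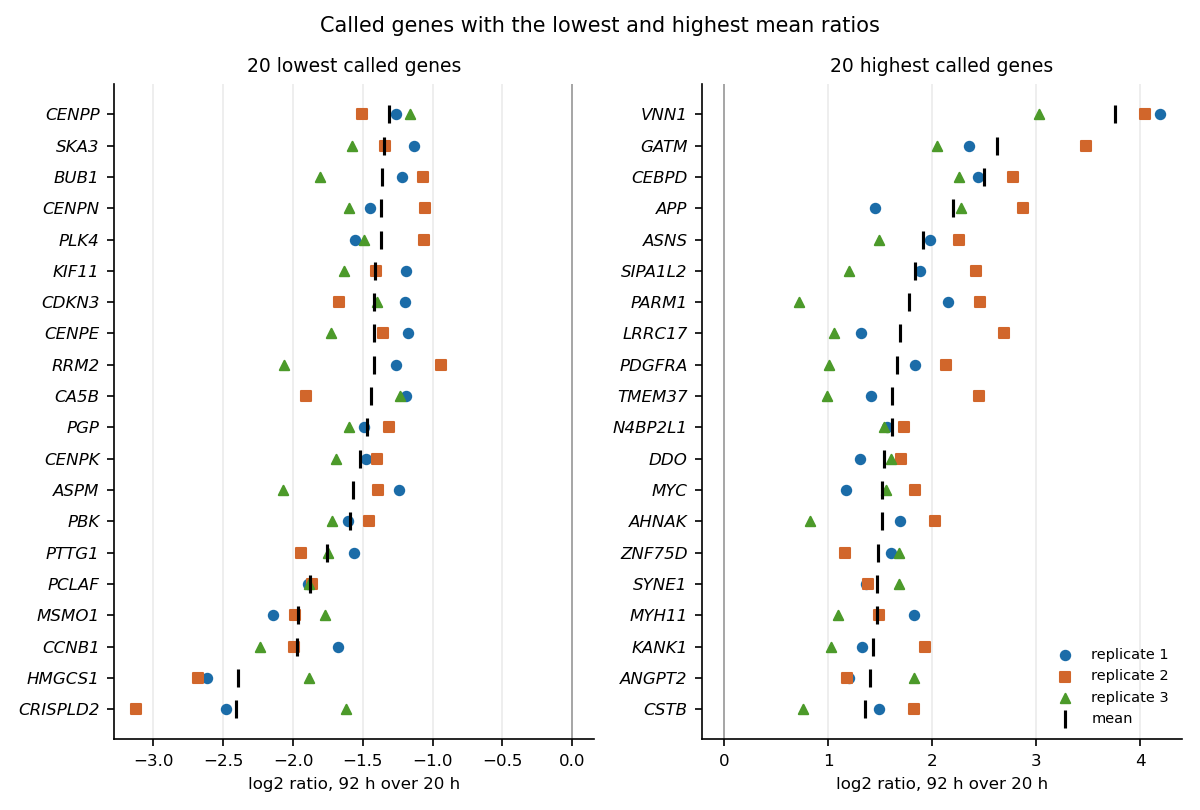
The 20 lowest (left) and 20 highest (right) mean log2 ratios of 92 h over 20 h among the called genes; symbols are the 3 replicates, each the mean of 2 dye orientations, and the vertical tick is their mean. Only called genes with all 3 replicates on one side of 0 were eligible, so that agreement is a condition of the choice. VNN1 stands apart from the other 19 that rose, at 3.76.

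**Figure D2:**
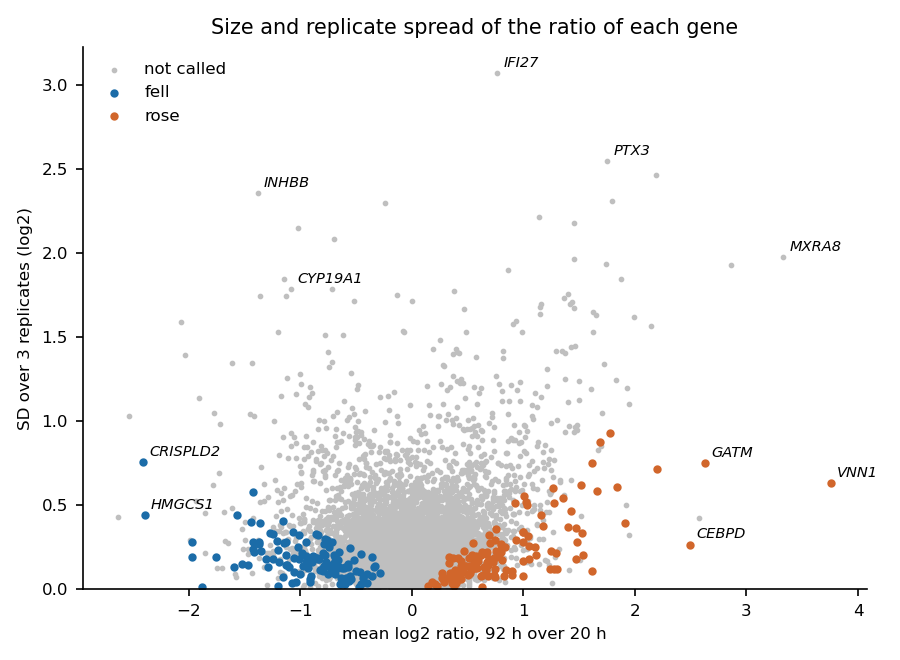
Mean log2 ratio of 92 h over 20 h (horizontal) against the SD over the 3 replicates (vertical) for the 11044 genes tested; called genes are coloured. The called genes lie along the lower edges, with SDs up to 0.929, and genes such as IFI27, PTX3 and INHBB lie far above them.

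The kinetochore, the protein plate that ties each chromosome to the spindle, was the list with the lowest median. Of 35 kinetochore and centromere genes tested, 12 fell and 0 rose, 35 had a ratio below 0, against 50.4% of all genes, and the median was -1.04 (-0.98, -0.88 and -1.16 in the replicates), against -0.00 over all genes. CENPK, a subunit of the inner centromere network, had ratios of -1.47, -1.40 and -1.69 and fell to -1.52 ± 0.15 (SD, n = 3, as for all single genes; adjusted p = 0.0332). CENPN, which reads the centromeric nucleosome, fell to -1.37 ± 0.28 with -1.45, -1.05 and -1.60, though its other probe read -0.52. CENPP (-1.27, -1.51 and -1.16) and CENPM (-0.89, -0.88 and -0.96), of the same network, fell in all 3 replicates by similar amounts. The small CENPW (-0.59, -0.79 and -0.83) fell too, and its 92 h channel exceeded background on 5 of 6 arrays.

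At the outer kinetochore, SPC25, part of the NDC80 complex that grips microtubules, had ratios of -1.10, -1.13 and -1.24 and fell to -1.16 ± 0.07 (adjusted p = 0.0483). Its partner NUF2 had ratios as even, -1.49, -1.60 and -1.62, and did not pass (adjusted p = 0.0639) in a test that also uses the spread of the 44 and 68 h values. From the values of 92 h alone its adjusted p was 0.0489. SKA2 (-1.03 ± 0.04) and SKA3 (-1.13, -1.34 and -1.58), which hold the kinetochore on a shrinking microtubule, fell together. DSN1, of the MIS12 complex, fell to -1.14 ± 0.28 by its brightest probe, while its other probe read -0.01. BUB1 (-1.22, -1.07 and -1.81) and BUB1B (-0.98, -0.85 and -1.20), kinases of the checkpoint that delays anaphase, fell, and so did the motor CENPE (-1.18, -1.35 and -1.73). For all 3 of these genes replicate 3 had the lowest ratio. MIS18A, which licenses centromeres for new CENPA, read -1.75 ± 0.12 and did not pass (adjusted p = 0.0661), its 2 other probes reading -0.56 and -0.04.

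Of 37 genes of the spindle and of cytokinesis 9 fell and 0 rose, 34 were below 0, and the median was -0.82. KIF11, the motor that pushes spindle poles apart, had ratios of -1.19, -1.40 and -1.64 and fell to -1.41 ± 0.22 (adjusted p = 0.0183). ASPM, which focuses spindle poles, had -1.24, -1.39 and -2.07, with its lowest value in replicate 3. PBK, a kinase active in mitosis, had -1.60, -1.45 and -1.72 and fell, its 2 other probes reading -1.26 and -0.08. PLK4, which starts the copying of centrioles, had -1.56, -1.06 and -1.49 and fell. DLGAP5 (-0.72, -1.08 and -1.40), TACC3 (-0.72, -0.94 and -0.73) and NUSAP1 (-1.26, -1.06 and -1.41), which stabilise spindle microtubules, fell by less than KIF11, and the other NUSAP1 probe read -0.01. The cleavage furrow genes ECT2 (-0.79, -0.72 and -0.95), an exchange factor for RhoA, and DIAPH3 (-0.87, -0.88 and -0.98), a formin, fell evenly across the replicates. The 2 other ECT2 probes read -0.75 and -0.32.

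Among 39 cyclins, kinase regulators and genes of the anaphase-promoting complex the median was only -0.18, and the 5 that fell were genes of G2 and mitosis. CCNB1, cyclin B1, whose channel levels were 12.94, 12.95 and 13.70 (log2) at 20 h and 11.26, 10.95 and 11.46 at 92 h, had replicate ratios between -2.24 and -1.68 and fell to -1.97 ± 0.28 (adjusted p = 0.0291). The levels of the times did not overlap. PTTG1, the securin that holds back separase, fell to -1.75 ± 0.19 with -1.57, -1.94 and -1.75. CDKN3, a phosphatase of cyclin-dependent kinases, fell to -1.42 ± 0.24, its 2 other probes reading -0.58 and -0.24. CCNA2, cyclin A2, fell to -1.08 ± 0.03 by its brightest probe with -1.08, -1.11 and -1.04, but its other probe read 0.02. CKS2, the small subunit that docks kinase substrates, had -0.96, -1.27 and -0.95. CDK1, the partner kinase of cyclin B1, read -1.05, -1.22 and -1.45 and narrowly did not pass (adjusted p = 0.0569).

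Of 46 genes of replication and nucleotide supply 6 fell and 1 rose, 42 were below 0, and the median was -0.53. PCLAF, a partner of the sliding clamp, had the most even ratios of the genes that fell at least 2-fold, -1.89, -1.86 and -1.88, and fell to -1.88 ± 0.01 (adjusted p = 0.0224). PCNA, the clamp itself, fell to -1.19 ± 0.16 with -1.15, -1.06 and -1.37, its 3 other probes between -1.17 and -0.89. RRM2, TK1 and TYMS, which supply deoxynucleotides, had -1.26, -0.94 and -2.06, -0.79, -1.27 and -0.78 and -1.04, -0.72 and -0.74 respectively and fell. The 3 other RRM2 probes lay between -1.10 and -0.0048, and the other TYMS probes read -0.08 and 0.08. RPA2, which coats single-stranded DNA, fell to -1.05 ± 0.10. The gene that rose was MCM2, a subunit of the replicative helicase, with 0.79, 0.99 and 0.64 by its brightest probe and -0.40 and 0.07 by others, so its probes disagree in direction.

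Of 19 genes of DNA repair and checkpoints 3 fell and 0 rose. Among them were XRCC2, which acts in homologous recombination (-1.03, -1.47 and -1.10), and POLH, a polymerase that copies past damaged bases (-1.04, -1.25 and -1.01). Of 24 genes of histones and chromatin assembly 3 fell and 0 rose, namely the condensin genes SMC2 (-0.78, -0.53 and -0.80) and NCAPG2 (-0.85, -0.62 and -0.65) and the histone chaperone ASF1B (-0.62, -0.74 and -0.94), whose other probe read -0.00. Over the 6 lists together, 200 genes were tested, 38 fell and 1 rose, 178 were below 0 and 150 were below 0 in all 3 replicates, against 22.5% of all genes below 0 in the 3 replicates. These 38 were 31.9% of all the genes that fell. Without replicate 1, 2 and 3 of 92 h the number that fell was 0, 1 and 3, and the median, -0.58, became -0.61, -0.65 and -0.52.

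**Figure D3:**
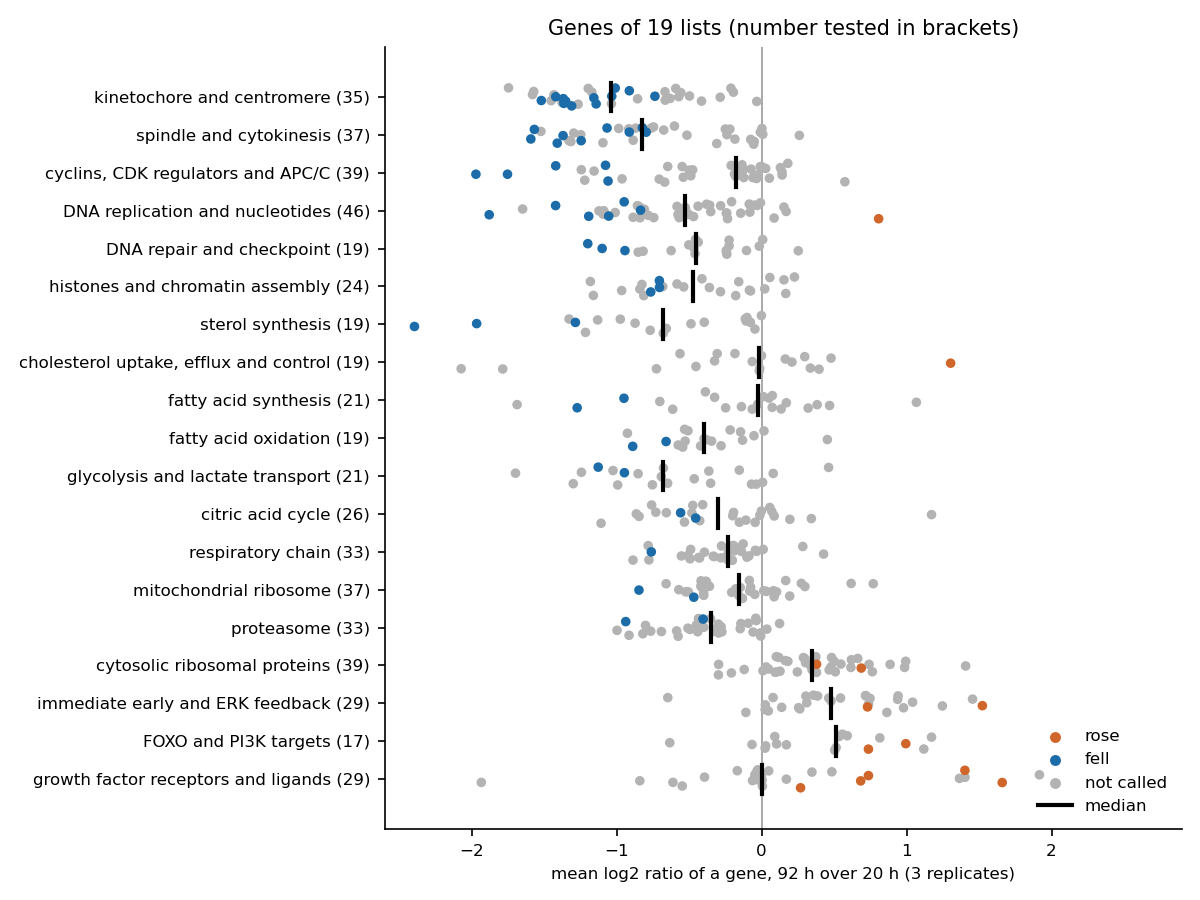
Mean log2 ratio of 92 h over 20 h for every tested gene of 19 lists (1 point per gene, vertical scatter only for legibility); black bars are list medians, blue points fell, orange points rose and grey points were not called. The kinetochore, spindle and sterol lists lie almost wholly left of 0 and the immediate early and ribosomal protein lists lie mostly right of it.

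Of 19 sterol synthesis genes tested, which make cholesterol from acetyl units, 3 fell and 0 rose. All 19 were below 0, with a median of -0.68 (-0.74, -0.56 and -0.60 in the replicates), 15 of them in all 3 replicates. HMGCS1, which makes HMG-CoA, had channel levels of 14.69, 14.08 and 14.16 (log2) at 20 h and 12.08, 11.40 and 12.27 at 92 h. Its ratios were -2.61, -2.68 and -1.89, and it fell to -2.39 ± 0.44, a 5.26-fold difference (adjusted p = 0.0170), with other probes at -0.52 and -0.48. MSMO1, a sterol demethylating oxidase, fell to -1.97 ± 0.19 with -2.14, -1.99 and -1.77, and its 3 other probes lay between -2.08 and -0.09. FDPS, which makes farnesyl diphosphate, fell to -1.28 ± 0.13 with -1.37, -1.35 and -1.14. Its 3 other probes lay between -1.09 and -0.11. The number that fell was 0, 0 and 1 without replicate 1, 2 and 3 of 92 h, and 1 when all kept probes of a gene were averaged. The next 4 in order of p did not pass. SQLE, squalene epoxidase, read -1.84, -1.35 and -0.80 (adjusted p = 0.0592), and ACAT2, which joins the first acetyl units, -0.96, -0.65 and -1.01 (adjusted p = 0.0656). IDI1, the isopentenyl isomerase, read -1.52, -0.99 and -0.89 (adjusted p = 0.0792), and DHCR7, of the last step to cholesterol, -0.74, -0.51 and -1.06 (adjusted p = 0.0946).

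Of 19 genes of cholesterol uptake, efflux and control 1 rose and 0 fell, 12 were below 0 and the median was -0.02 (-0.21 with 92 h RNA in Cy5). No test of the difference from the synthesis genes was made. The one that rose was MYLIP, a ligase that marks the LDL receptor for degradation. Its ratios were 1.29, 1.43 and 1.20, with a mean of 1.30 ± 0.12 (adjusted p = 0.0408). SREBF1, a regulator of lipid synthesis, read -0.83, -0.05 and -0.80 and SCARB1, the HDL receptor, -0.29, -0.36 and -0.32; neither passed. LRP8, a lipoprotein receptor, had replicates far apart, -1.60, -3.84 and -0.77. INSIG1, which retains the SREBP precursors in the endoplasmic reticulum, read -1.75, -1.19 and -2.42 (adjusted p = 0.282), its 2 other probes reading -0.79 and -0.02. SREBF2, the SREBP that drives sterol synthesis genes, read -1.18, -1.16 and 0.16 (adjusted p = 0.403). Both were named here after their values were seen.

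In fatty acid metabolism the genes that fell were on both the making and the burning side. ACSL3, which activates fatty acids for lipid synthesis, had -1.45, -0.89 and -1.48 and fell to -1.27 ± 0.33 (adjusted p = 0.0130). Its 2 other probes read -0.85 and -0.17. SCD, the stearoyl-CoA desaturase, fell to -0.95 ± 0.20 with -0.87, -1.17 and -0.80. They were 2 of 21 synthesis genes, whose median was -0.03. PLIN2, which coats lipid droplets, read 0.96, 1.24 and 1.00 and did not pass (adjusted p = 0.0626). Of 19 oxidation genes 2 fell, 17 were below 0 and the median was -0.40. These 2 were HADHB, of the trifunctional protein (-0.71, -0.86 and -1.10), and ACADL, a long-chain dehydrogenase (-0.53, -0.80 and -0.65); ACADM, its medium-chain relative, read -0.44, -0.73 and -0.47 and did not pass (adjusted p = 0.0612).

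Glycolysis and lactate transport had a median of -0.68 over 21 genes, 18 of them below 0, of which 2 fell. Cumulus cells are known to break down glucose for the oocyte and pass on pyruvate. PGAM1, phosphoglycerate mutase, had -1.07, -1.01 and -0.76 and fell to -0.95 ± 0.16 (adjusted p = 0.0183). SLC16A1, a carrier of lactate and pyruvate, had -1.45, -0.97 and -0.96 and fell to -1.13 ± 0.28 (adjusted p = 0.0238). The 2 other SLC16A1 probes read only -0.35 and -0.31. Other genes had ratios as large and as even without passing. SLC16A3, a second lactate carrier, read -1.61, -1.64 and -1.84 (adjusted p = 0.241, and 0.0489 from the values of 92 h alone). PFKL, a phosphofructokinase, read -1.27, -1.32 and -1.30 (adjusted p = 0.254, and 0.0489 alone), and LDHA, lactate dehydrogenase A, -0.95, -0.93 and -1.09 (adjusted p = 0.0736, and 0.0489 alone). The pooled test also uses the spread of the 44 and 68 h values.

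Of 26 genes of the citric acid cycle and its entry 2 fell, both of the pyruvate dehydrogenase complex: PDHB had -0.44, -0.49 and -0.43 and fell to -0.45 ± 0.03 (adjusted p = 0.0120), and DLAT had -0.49, -0.55 and -0.63 and fell to -0.56 ± 0.07. PDHX, another subunit, read -0.55, -0.51 and -0.38 and PDK4, the kinase that switches the complex off, 1.07, 1.97 and 0.48; neither passed (adjusted p = 0.0844 and 0.139). Of 33 respiratory chain genes 1 fell, CYCS, cytochrome c (-0.84, -1.01 and -0.44), with list medians of -0.29, -0.46 and -0.01 in the replicates. Of 37 genes of the mitochondrial ribosome 2 fell, MRPS23 (-0.97, -0.94 and -0.63) and MRPS22 (-0.45, -0.57 and -0.38), with list medians of -0.26, -0.26 and 0.03. In both lists replicate 3 was near 0. The 2 other MRPS23 probes read -0.70 and -0.10.

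The proteasome list had 31 of 33 genes below 0 and a median of -0.35, of which 2 fell. They were the core subunits PSMA2 (-0.85, -1.11 and -0.86) and PSMA6 (-0.36, -0.50 and -0.35), whose other probes read between -0.51 and -0.11 for PSMA2 and -0.42 for PSMA6. The cytosolic ribosome had the opposite sign, with 35 of 39 genes above 0, against 49.6% of all genes, and a median of 0.35, of which RPS7 (0.55, 0.65 and 0.87) and RPL10A (0.31, 0.33 and 0.50) rose. That median differed between the dye orientations, which were also different slides: it was 0.03 over the arrays with 92 h RNA in Cy3 and 0.43 over those with it in Cy5, and RPL10A read -0.05 on the former.

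**Figure D4:**
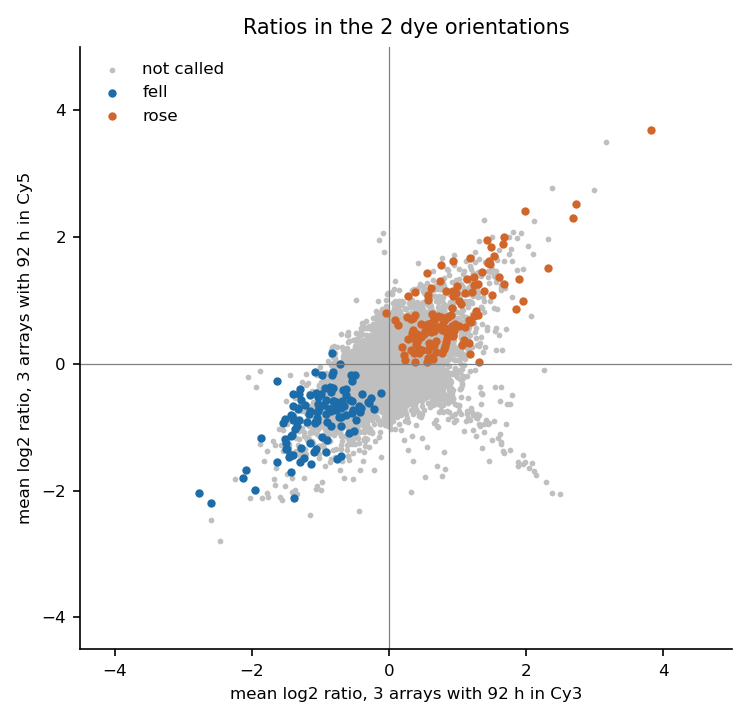
Mean log2 ratio of 92 h over 20 h on the 3 arrays with 92 h RNA in Cy3 (horizontal) against that on the 3 arrays with it in Cy5 (vertical), 1 point per gene; called genes are coloured. Nearly all called genes lie in the lower left and upper right. An arm of uncalled genes runs to the lower right, where 26 genes exceed 1 on the first arrays and lie under -1 on the second.

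The largest rise was in a gene of cysteamine and pantothenate metabolism. VNN1, a pantetheinase that releases cysteamine from pantetheine, had channel levels of 8.61, 9.66 and 8.65 (log2) at 20 h and 12.80, 13.71 and 11.69 at 92 h, with no overlap. Its ratios were 4.19, 4.05 and 3.03, a 13.5-fold rise on average (adjusted p = 0.0208), and its 6 arrays lay between 2.88 and 4.33. Its relative VNN2 read -0.70, -0.40 and -0.61 and did not pass (adjusted p = 0.0979). GATM, which makes the creatine precursor guanidinoacetate, had 2.36, 3.48 and 2.05 and rose by 2.63 ± 0.75 (adjusted p = 0.0389), the single call among 14 genes of creatine, polyamine and urea metabolism. ASNS, asparagine synthetase, had 1.98, 2.26 and 1.49 and rose by 1.91 ± 0.39. Of 24 genes of the amino acid response it was the only one called, and DDIT3 (0.47, 0.07 and 0.14), a classic companion in that response, did not pass.

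CEBPD, a transcription factor of the C/EBP family that acts in differentiation, had levels of 11.60, 11.62 and 11.43 (log2) at 20 h and 14.04, 14.40 and 13.69 at 92 h, and rose by 2.50 ± 0.26 (adjusted p = 0.0311); another probe read 0.45. MYC, a regulator of growth, had 1.18, 1.84 and 1.56 and rose by 1.52 ± 0.33 (adjusted p = 0.0224). DUSP6, the phosphatase that ERK signalling induces against itself, had 0.78, 0.55 and 0.86 and rose by 0.73 ± 0.16. MYC and DUSP6 were the 2 called of 29 immediate early and ERK feedback genes, of which 27 were above 0, with a median of 0.48 (0.30, 0.55 and 0.30 in the replicates). PHLDA1 (0.38, 0.42 and 0.27), SPRED2 (0.30, 0.27 and 0.23) and NR4A2 (0.16, 0.16 and 0.09) were even across replicates and did not pass (adjusted p = 0.0592, 0.0724 and 0.0782).

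Receptors and their adaptors were among the genes that rose. Of 29 growth factor receptors and ligands 5 rose and 0 fell, while the list's median was 0.00. PDGFRA, the PDGF receptor alpha, had 1.83, 2.14 and 1.01 and rose by 1.66 ± 0.58 (adjusted p = 0.0437). ANGPT2, a ligand of the vascular TIE2 receptor, had 1.20, 1.18 and 1.83, ERBB3, a partner of other ERBB receptors, 0.81, 0.53 and 0.71, and INSR, the insulin receptor, 0.65, 0.81 and 0.76. IL6ST, the shared signal chain of the interleukin 6 receptors, rose by only 0.27 ± 0.07. GAB1, which docks PI3-kinase to receptors, had 0.93, 1.36 and 0.69 and rose by 0.99 ± 0.34. GAB1 and INSR were the 2 called of 17 FOXO and PI3-kinase targets, whose median was 0.51 (0.16 without replicate 3 of 92 h), with 15 above 0.

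PDGFRA and MYH11 also stand in the theca and smooth muscle list, and CD68 in the leukocyte list. MYH11, smooth muscle myosin, had 1.83, 1.49 and 1.10 and rose by 1.47 ± 0.37 (adjusted p = 0.0120), and it exceeded background in 3 of the 6 channels of 20 h and in all 6 of 92 h. Of the 15 tested genes of the theca and smooth muscle list, 2 rose and 0 fell, 7 were above 0, 6 of them in all 3 replicates, and the median was -0.00. Other members, named here after their values were seen, differed. Smooth muscle actin ACTA2 read 0.37, 0.57 and 0.78 (adjusted p = 0.580) and the collagen COL3A1 0.05, 2.78 and -0.03 (adjusted p = 0.382). DES, desmin, read 0.03, 0.00 and 0.05 and TAGLN, transgelin, 0.01, 0.06 and 0.06. Below 0 were 8 members, with the lowest means in TCF21 (-1.12), LUM (-0.48) and CNN1 (-0.21), none of them called. CD68, a lysosomal protein of macrophages and other cells, had 1.27, 1.18 and 0.34 and rose by 0.93 ± 0.51 (adjusted p = 0.0465). CXCR4, which is in the leukocyte list too, read 1.79, 1.82 and 0.68 (adjusted p = 0.0504). Of the 9 tested genes of the leukocyte list, 1 rose and 0 fell, 6 were above 0, the median was 0.05 and the lowest ratio -0.03. The part of other cell types in these rises was not tested.

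The remaining genes with high ratios have varied roles. APP, the amyloid precursor protein, had 1.45, 2.88 and 2.28 and rose by 2.20 ± 0.72 (adjusted p = 0.0416). SIPA1L2, a regulator of the GTPase RAP, rose by 1.84 ± 0.61 with another probe at 1.08, and PARM1, a mucin-like membrane protein, by 1.78 ± 0.93. LRRC17, a secreted leucine-rich protein, had 1.32, 2.69 and 1.06, with its highest value in replicate 2, and TMEM37, a calcium channel gamma-like subunit, had 1.42, 2.45 and 0.99. Structural proteins included AHNAK (1.69, 2.03 and 0.83), the nuclear envelope linker SYNE1 (1.36, 1.38 and 1.68) and KANK1 (1.32, 1.94 and 1.03), which sits at the rim of focal adhesions. CSTB, an inhibitor of cathepsins, rose by 1.36 ± 0.54.

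Several of these rises had almost the same size in the 3 replicates. N4BP2L1 had 1.57, 1.73 and 1.54, though its other probe read 0.10. DDO, the peroxisomal D-aspartate oxidase, had 1.31, 1.70 and 1.61 and ZNF75D, a zinc finger protein, 1.60, 1.16 and 1.68. ACSS1, the mitochondrial acetyl-CoA synthetase, had 1.35, 1.34 and 1.14, ELL2, a factor of transcription elongation, 1.25, 1.11 and 1.35, and ACO1, the cytosolic aconitase that doubles as an iron sensor, 1.03, 1.05 and 0.91. YPEL5 (0.90, 0.84 and 0.75), COMMD3 (0.64, 0.61 and 0.63) and OFD1 (0.96, 0.93 and 0.80), a protein of the base of cilia, rose by less than 2-fold. Most of these 9 were named because they also passed from the values of 92 h alone.

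On the falling side, genes outside division and lipid synthesis included the gene with the lowest ratio of all those called. CRISPLD2, a secreted matrix protein, had levels of 14.81, 15.11 and 15.12 (log2) at 20 h and 12.33, 11.99 and 13.50 at 92 h, and fell to -2.41 ± 0.76 (adjusted p = 0.0208), with its 2 other probes at -1.72 and -0.14. PGP, a phosphatase that clears phosphoglycolate, had -1.49, -1.31 and -1.60, and CA5B, a mitochondrial carbonic anhydrase, -1.19, -1.90 and -1.23. Together with LRRC17 in the other direction, CRISPLD2 was 1 of 2 calls among 27 extracellular matrix genes. Of the 256 called genes, 175 were in none of the 53 lists.

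Genes that define the steroid-making follicle gave 1 call. HSD3B1, which turns pregnenolone into progesterone, had -1.23, -1.19 and -1.19 and fell to -1.20 ± 0.02 (adjusted p = 0.0389). CYP11A1, which cuts the side chain of cholesterol, was lower in every replicate but unevenly, -0.63, -2.01 and -2.68 (adjusted p = 0.361). STAR, which brings cholesterol into mitochondria, read 0.10, 0.10 and -0.20, and CYP19A1, aromatase, -1.05, -2.88 and 0.69 (adjusted p = 0.524). Of 17 steroid synthesis genes 1 fell and 0 rose.

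Of 24 genes of gonadotropin response and granulosa identity 0 passed by limma. An unadjusted p under 0.05 was found for 7 of them, against 1991 of all 11044 genes. AMH, a product of growing follicles, was lower in all replicates, -0.76, -1.07 and -1.76 (adjusted p = 0.394), as was the inhibin alpha subunit INHA, -0.49, -1.75 and -0.33 (adjusted p = 0.200). The activin subunits INHBA (-0.62, -3.07 and 0.30) and INHBB (-0.98, -3.91 and 0.75) and the activin binder FST (-0.65, -2.16 and 1.26) had their lowest values in replicate 2 and were above 0 in replicate 3. The FSH receptor FSHR read 0.03, -0.93 and -0.01, the orphan receptor NR5A2 -0.07, -0.91 and 0.32, and the gap junction gene GJA1 0.02, -0.11 and 0.96. The 2 other NR5A2 probes read 0.17 and 0.24 on average. FOXL2, a granulosa cell regulator, exceeded background in 1 of the 6 channels of 20 h and in 0 of 92 h. LHCGR, PTGS2 and CEBPA had probes that were too dim to be tested.

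Cumulus expansion is the loosening of the cell mass in a hyaluronan matrix before ovulation. The median of its 19 genes was near 0 in each replicate (0.08, 0.05 and 0.01), and a few members had high ratios in replicate 2. PTX3, a matrix protein that cross-links hyaluronan, had levels of 7.90 and 12.56 (log2) at 20 and 92 h in replicate 2, 8.15 and 8.79 in replicate 1 and 8.12 and 8.07 in replicate 3. Its ratios were therefore 0.64, 4.67 and -0.05 (adjusted p = 0.308). TNFAIP6, which binds hyaluronan, read 1.06, 4.39 and -0.06 (adjusted p = 0.259) and PLAT, tissue plasminogen activator, 0.68, 3.69 and 0.00 (adjusted p = 0.269). HAS2, the hyaluronan synthase, read 0.21, 0.92 and 0.01, also highest in replicate 2, by a probe that exceeded background in 4 of the 6 channels of 20 h. Of 19 genes of expansion and ovulation 0 passed by limma. An unadjusted p under 0.05 was found for 5 of them, against 1991 of all 11044 genes.

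**Figure D5:**
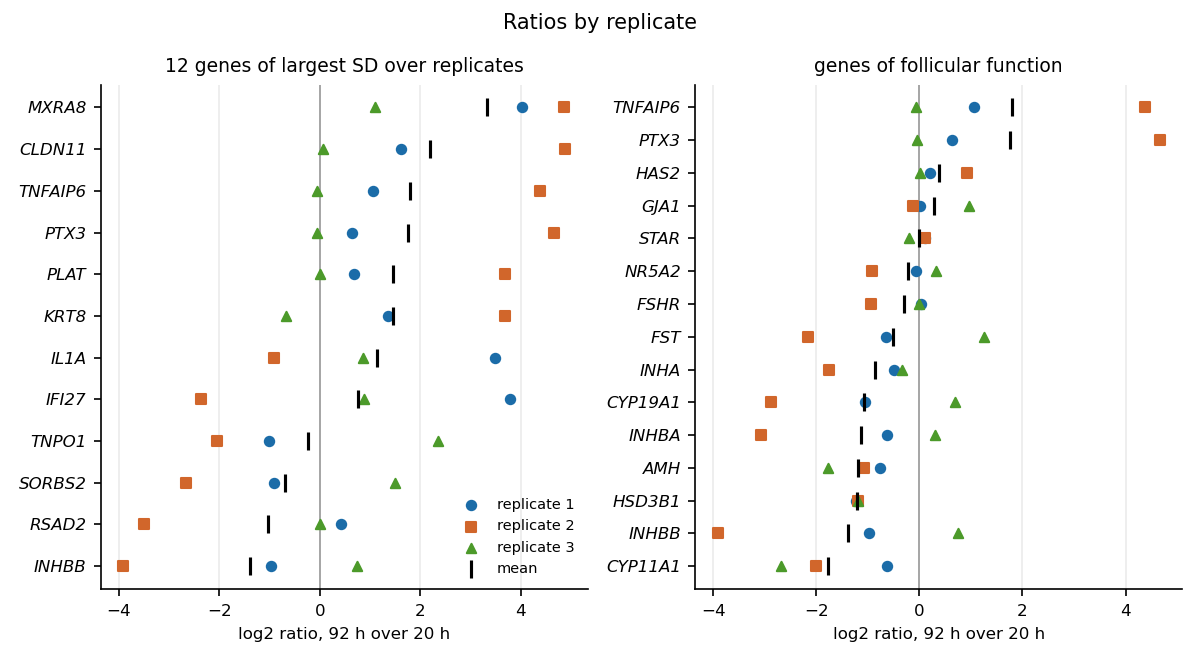
Log2 ratios of 92 h over 20 h by replicate for the 12 genes with the largest SD over replicates (left) and for 15 genes of follicular function (right); symbols are replicates and the tick is their mean. Replicate 2 holds the extreme value for most of these genes, while the 3 points of HSD3B1 overlap at -1.20.

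The other genes with the widest spread differed in which replicate stood apart. The tight junction gene CLDN11 read 1.61, 4.89 and 0.06, MXRA8, a matrix receptor, 4.02, 4.86 and 1.10 and the keratin KRT8 1.35, 3.67 and -0.67, each highest in replicate 2 and lowest in replicate 3. SORBS2, an adaptor at adhesions, read -0.92, -2.65 and 1.49 and TNPO1, a nuclear import receptor, -1.01, -2.05 and 2.35, with replicate 2 lowest and replicate 3 highest. The interferon-induced genes IFI27 (3.78, -2.36 and 0.88) and RSAD2 (0.42, -3.49 and -0.00) were lowest in replicate 2, and IL1A, interleukin 1 alpha, read 3.49, -0.91 and 0.85. None of these 8 passed by limma, nor did CLU (1.86, 3.83 and 0.74), THBS1 (1.25, 3.31 and 1.22), CDH2 (1.82, 3.08 and 0.59), JAG1 (1.14, 2.99 and 0.16) and STC1 (1.54, 3.14 and 0.48), which were above 0 in the 3 replicates and highest in replicate 2.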

How the data were processed

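Gene expression in bovine cumulus cells was measured on dual-channel Agilent slides. Per the labels' protocols, RNA was amplified in 2 rounds and labelled chemically with Cy3 or Cy5. The deposited scanner tables hold mean intensity per spot and its local background, neither corrected nor normalized, per the file headers. Neither scanner nor image software is given in the sources used here. A deposited series table gives 1 log2 ratio for each probe and array. On the 6 arrays it follows Cy5 over Cy3 (r from 0.851 to 0.923, slope from 1.03 to 1.22, column medians from -0.0121 to 0.00778), its background correction and normalization are unknown, and it served only as an alternative.

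Normexp with an offset of 50 removed background, fitted on 45220 spots, and loess within arrays gave control spots no weight. Loess assumes that most genes do not change, and dim probes have compressed ratios. Ratios were turned to 92 h over 20 h by dye, and both orientations of each replicate were then averaged. Arrays that share a number in opposite orientations were treated as a dye swap of the same extracts, which the labels do not state outright. All arrays with 92 h RNA in Cy3 were on 1 slide and all with it in Cy5 on another, so slide and orientation cannot be told apart. A probe was kept if, in the channel of at least 1 coasting time, it exceeded the mean plus 2 SD of 153 negative controls on at least 50% of arrays. This left 27381 of 43794 gene probes. Symbols came from the platform annotation for 21790 probes, of which 20025 were current, 1524 were updated and 241 were not matched in RefSeq, and 22004 probes had none. The brightest kept probe stood for a gene, giving 11044 genes. Channel levels are after loess and Aquantile scaling.

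The test of each gene was that of limma 3.58.1 (lmFit, then eBayes, under R 4.3.3), two-sided, on 9 averaged values with 1 coefficient per coasting time, 6 residual and 1.13 prior degrees of freedom, and Benjamini-Hochberg adjustment over all genes (called: adjusted p under 0.05). Values of different times may share 20 h RNA, for which the p-values do not allow. The script was tested on simulated data. The members, gene lists and alternatives were chosen with earlier results of these data known, and the lists are described by counts and medians, without a test. Named genes are the 20 highest and 20 lowest called ratios among genes with the same sign in the 3 replicates, and list members called or among the next 4 by p. Also named are 23 follicular genes, the 12 of largest SD, and the 10 of smallest p in each direction called both here and from 92 h alone. A gene of DNA repair that the rule names is not reported here. Alternatives concerned background, normalization, the dim filter, probes, dye, prior, block, slide and left-out replicates.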

Additional observations from a re-analysis of the deposited data

How the results depend on the processing

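The sign of the ratio was kept by all 256 called genes in every alternative run, except in 1 gene with the coasted sample in Cy3 only and 2 with it in Cy5 only, and the stricter filter held 249 of them. The alternatives use the same arrays and are not independent. RPL10A was the named gene that turned, to -0.0501 in Cy3 only. The number called moved widely. It was 459 without background correction, 472 with plain subtraction, 68 with median centring (13 higher, 55 lower, against 137 and 119), 160 from the values of 92 h alone, 0 with a trended and robust prior, 1489 in Cy3 only, 360 in Cy5 only (1489 and 360 come from 1 array per replicate) and 4494 when slide entered as a random block over 18 separate arrays (correlation -0.253). The deposited value table gave 290, no filter 180, the stricter filter 311 and the mean of probes 242. Leaving out 1 replicate gave between 0 and 526. The cause of these shifts was not tested.

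With the replicate block 117 genes passed (48 higher, 69 lower), 91 of them among the 256. Values of the same number deviated together between 92 and 44 h (r = 0.36, 0.26 and 0.24) and not between 92 and 68 h (-0.09, -0.33 and -0.35), so the values do not settle whether the numbers pair the samples. Of 102 called genes named in the text, 44 passed with the block. A further pair of alternatives was chosen after seeing the data: without the 8 spots that carry no name, 257 genes passed, and from the values of 92 h alone 48. The median of the 6 division lists stayed between -0.73 and -0.51 over all alternatives, and that of sterol synthesis between -0.82 and -0.62. Signal over background limits genes with dim probes, whose ratios are compressed.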

Other observations

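Some groups were not described above. The share called was 4.35% for hypoxia, 3.70% for endoplasmic reticulum folding and 5.41% for antioxidant genes, against 2.32% of all genes. These shares rest on 1 or 2 calls each. Of 23 hypoxia genes 1 fell, EGLN3, an oxygen-sensing prolyl hydroxylase, with -1.55, -1.17 and -0.74 (adjusted p = 0.0349, limma), and the list medians were -0.34, -0.52 and -0.06 in the replicates. ERO1A, an oxidase of protein folding in the endoplasmic reticulum, read -1.34, -1.30 and -0.66 and did not pass (adjusted p = 0.0839). DNAJB11, a chaperone partner in that compartment, had -0.69, -0.30 and -0.37 and fell, the 1 call of 27 genes of endoplasmic reticulum folding. Of 37 antioxidant and metallothionein genes VNN1 and the metallothionein MT2A (0.55, 0.64 and 0.22) rose, while GCLM, which helps make glutathione, read -0.66, -1.03 and -0.36 and GPX3, a secreted peroxidase, 1.01, 0.98 and 0.66, neither past the threshold (adjusted p = 0.0709 and 0.120).

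Of 21 interferon response genes 0 passed by limma, and their medians were 0.23, -0.65 and 0.01 in the replicates. An unadjusted p under 0.05 was found for 1 of them, against 1991 of all 11044 genes. MX1, an antiviral GTPase, read 0.09, -1.15 and -0.68. NFKBIA, the inhibitor that NF-kappaB induces, was above 0 in each replicate, 2.67, 1.33 and 1.09, without passing (adjusted p = 0.0801). IGFBP7, which binds insulin-like growth factors, rose by 0.37 ± 0.05 with 0.43, 0.37 and 0.32, and TPM1, a tropomyosin, by 0.41 ± 0.19 with 0.27, 0.62 and 0.35.

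Among called genes 4 were not well above background on any array of 1 group, and they are named for that reason after their values were seen. DEPDC1 was lower at 92 h by at least 1.40-fold, and CREB3L4, GPR137B and GAB2 were higher by at least 1.06, 1.12 and 1.17-fold. Each bound divides the mean of the brighter group by a floor for the dimmer one, which on each array is the faintest signal that exceeded background or, if larger, the signal of the probe itself, after loess and Aquantile.

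In 26 genes the mean ratio was above 1 with 92 h RNA in Cy3 and under -1 with it in Cy5, in 0 genes the reverse held, and 0 of the 26 were called. Ratios past 1 in the same direction in both orientations were found in 212 genes, 52 of them called. In a fit over all 27381 kept probes, 115 of the 12635 probes with no gene symbol passed by limma (69 higher, 46 lower), that is 0.910%, against 1.63% of named probes.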
